A study of Rattus norvegicus with 12 samples.

Results

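The Egr and Nr4a genes are 7 transcription factor genes (Egr1, Egr2, Egr3, Egr4, Nr4a1, Nr4a2 and Nr4a3) that were read by their symbols from a striatal RNA sequencing table of 17337 genes. All 7 were present and had counts in each of 12 rats. One library was made per striatum, from male Sprague–Dawley rats labelled wild type and treated with methamphetamine (MA), and all had gone through 16 days of MA self-administration. They fell into 3 groups of 4. MA12 rats were killed 12 h and MA24 rats 24 h after the last session, and 4 rats were labelled non-addicted. What defined a non-addicted rat, and its interval after the last session, is not given in the sources used here. No group labelled as saline or as killed directly after MA was analysed here. No drug-free level, and no level known to precede abstinence, therefore stands beside these values. The MA12 and MA24 groups lie 12 h apart in both abstinence and hour of the day, which cannot be told apart. Rat numbers carry an N for all 4 MA24 rats, 2 of the 4 MA12 rats and no non-addicted rat, and the sources used here do not say what N means.

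Immediate early genes are switched on within minutes of synaptic activity, before any new protein is made, and their mRNAs are short-lived. Calcium and cyclic AMP signals reach them through CREB bound to a cyclic AMP response element (CRE), and the MAPK cascade reaches them through serum response factor and its partners on the CArG box. The Egr proteins are zinc finger factors that bind GC-rich sites, and the Nr4a proteins are orphan nuclear receptors that act without a known natural ligand and bind the NBRE element as monomers. In striatal projection neurons, both families respond to dopamine and psychostimulants.

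Sequence before the transcription start was taken from RefSeq (build GRCr8) for the 5 members matched there, Egr1, Egr2, Egr4, Nr4a1 and Nr4a2, and not for Egr3 or Nr4a3. The stretches below belong to Egr2 and to Egr4 and Nr4a1, whose levels each correlated with that of Egr2 across rats. Capitals mark matches on either strand to the CArG box, to TGACG (the core of the CRE, read as CGTCA on the other strand) or to the Egr site GCGNGGGCG, in the window from 250 bases before to 50 after the start.

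Egr2, chr20:21054501-21054548, minus strand: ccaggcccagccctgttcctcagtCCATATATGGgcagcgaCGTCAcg

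Egr4, chr4:119607912-119608007, minus strand: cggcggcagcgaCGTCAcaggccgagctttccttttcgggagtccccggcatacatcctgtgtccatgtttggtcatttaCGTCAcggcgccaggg

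Nr4a1, chr7:134259888-134260097, plus strand: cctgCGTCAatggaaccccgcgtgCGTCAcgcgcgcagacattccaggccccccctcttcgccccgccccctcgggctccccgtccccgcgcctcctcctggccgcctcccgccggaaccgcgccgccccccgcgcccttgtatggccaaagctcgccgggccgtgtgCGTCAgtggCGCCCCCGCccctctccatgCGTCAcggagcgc

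Egr1 and Egr2 both had a CArG box from 83 to 74 bases and a CRE core from 66 to 62 bases before the start, although only 23 of 48 positions around them were identical. Egr1 had a second CArG box, from 105 to 96 bases before the start, and a second CRE core, from 135 to 131 bases. A CArG box stood in 1.64% of 33469 promoters of this length. Egr4 had 2 CRE cores, Nr4a1 had 4 and Nr4a2 had 1, against 21.2% of promoters with at least 1. The Egr site of Nr4a1, from 73 to 65 bases before its start, had a match in 4.98% of promoters. The full CRE, TGACGTCA, found in 1.83% of promoters, and the NBRE, AAAGGTCA, found in 1.43%, had no match in the 5 windows. These matches are letters in a window, not measured binding.

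The authors counted reads per gene, and total counts ran from 17908962 to 23850284 per rat. Levels are given as TMM-scaled CPM (a gene's count scaled to a common library size), and on the log2 scale after adding a prior count of 2. Counting error did not account for the distance between rats of a group, since over 18 pairs chi-square divided by its degrees of freedom lay between 9.72 and 27.98. The striatal identity of the tissue was plain in the 10 projection neuron markers, which summed to between 13918 and 18429 CPM per rat, while 7 cortical excitatory markers summed to 14.8 to 27.6 CPM. In bulk tissue, fewer cells of a type and less RNA per cell cannot be told apart.

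Egr1, also known as Zif268, is the family member most used as a marker of recent neuronal activity. Egr1 stood at 109, 90.1, 90.7 and 169.8 CPM in MA12 rats 21, 31, 4N and 7N. Among MA24 rats, Egr1 read 81.1, 119, 105 and 107 CPM in rats 9N, 14N, 15N and 16N. Non-addicted Egr1 levels were 80.0, 138, 83.9 and 113 CPM in rats 9, 11, 12 and 13. The groups overlapped throughout, and the high values were those of MA12 rat 7N and non-addicted rat 11.

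Egr2, known as Krox20, directs hindbrain patterning and peripheral myelination and is also induced in neurons. Egr2 stood at 9.59, 5.01, 7.71 and 28.3 CPM in the same order of MA12 rats. Among MA24 rats, Egr2 read 3.44, 15.4, 7.71 and 9.45 CPM. Non-addicted Egr2 levels were 3.86, 19.7, 5.58 and 13.7 CPM. Rats 7N and 11 were again the highest and second highest of 12, and the highest of a group exceeded its lowest by 5.65 times in MA12, 4.48 times in MA24 and 5.12 times in non-addicted rats.

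Egr3, a factor required for the development of muscle spindles, had a different order of rats. Egr3 stood at 58.3, 55.3, 72.8 and 61.9 CPM in MA12. Among MA24 rats, Egr3 read 57.5, 32.3, 50.1 and 56.6 CPM, with rat 14N the lowest of all 12. Non-addicted Egr3 levels were 48.2, 74.3, 72.1 and 72.2 CPM, so that 3 rats lay close together above every MA24 rat and rat 9 lay below 3 of the 4 MA24 rats.

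Egr4, which has a role in male germ cells and is also induced in neurons, stood at 108, 77.0, 117 and 152 CPM in MA12. Among MA24 rats, Egr4 read 93.0, 121, 83.1 and 142 CPM. Non-addicted Egr4 levels were 82.2, 176, 92.5 and 159 CPM. Rats 11 and 13 were the highest of 12, their group also held the second lowest value (rat 9), and the groups overlapped.

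Nr4a1, known as Nur77, is induced in striatal projection neurons when dopamine signalling changes. Nr4a1 stood at 73.0, 42.7, 56.4 and 189.8 CPM in MA12. Among MA24 rats, Nr4a1 read 73.7, 113, 79.1 and 61.8 CPM. Non-addicted Nr4a1 levels were 33.3, 156, 44.4 and 61.9 CPM. The spread was wide in MA12 and non-addicted rats, where 7N and 11 exceeded every other rat, and narrower in MA24.

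Nr4a2, known as Nurr1, maintains midbrain dopamine neurons, whose cell bodies lie outside the striatum. Nr4a2 stood at 1.81, 1.75, 1.88 and 1.58 CPM in MA12. Among MA24 rats, Nr4a2 read 0.95, 1.77, 2.06 and 1.80 CPM. Non-addicted Nr4a2 levels were 2.08, 1.78, 1.19 and 1.93 CPM. These rest on 22 to 43 counts per rat. Over all 12 rats, group differences included, the variance was 1.48 times that of Poisson counting, against 53.8 to 553 times for the other 6 members. Differences between rats in Nr4a2 were therefore hardly detectable at this depth.

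Nr4a3, known as Nor1, shares its DNA element with both relatives. Nr4a3 stood at 8.20, 2.47, 3.99 and 5.36 CPM in MA12. Among MA24 rats, Nr4a3 read 2.54, 4.53, 2.72 and 8.03 CPM. Non-addicted Nr4a3 levels were 6.05, 28.5, 9.39 and 7.39 CPM. Rat 11, with 577 counts, was far above the other 11 rats, and rat 12 was the only other non-addicted rat above every MA12 and MA24 rat.

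**Figure D1:**
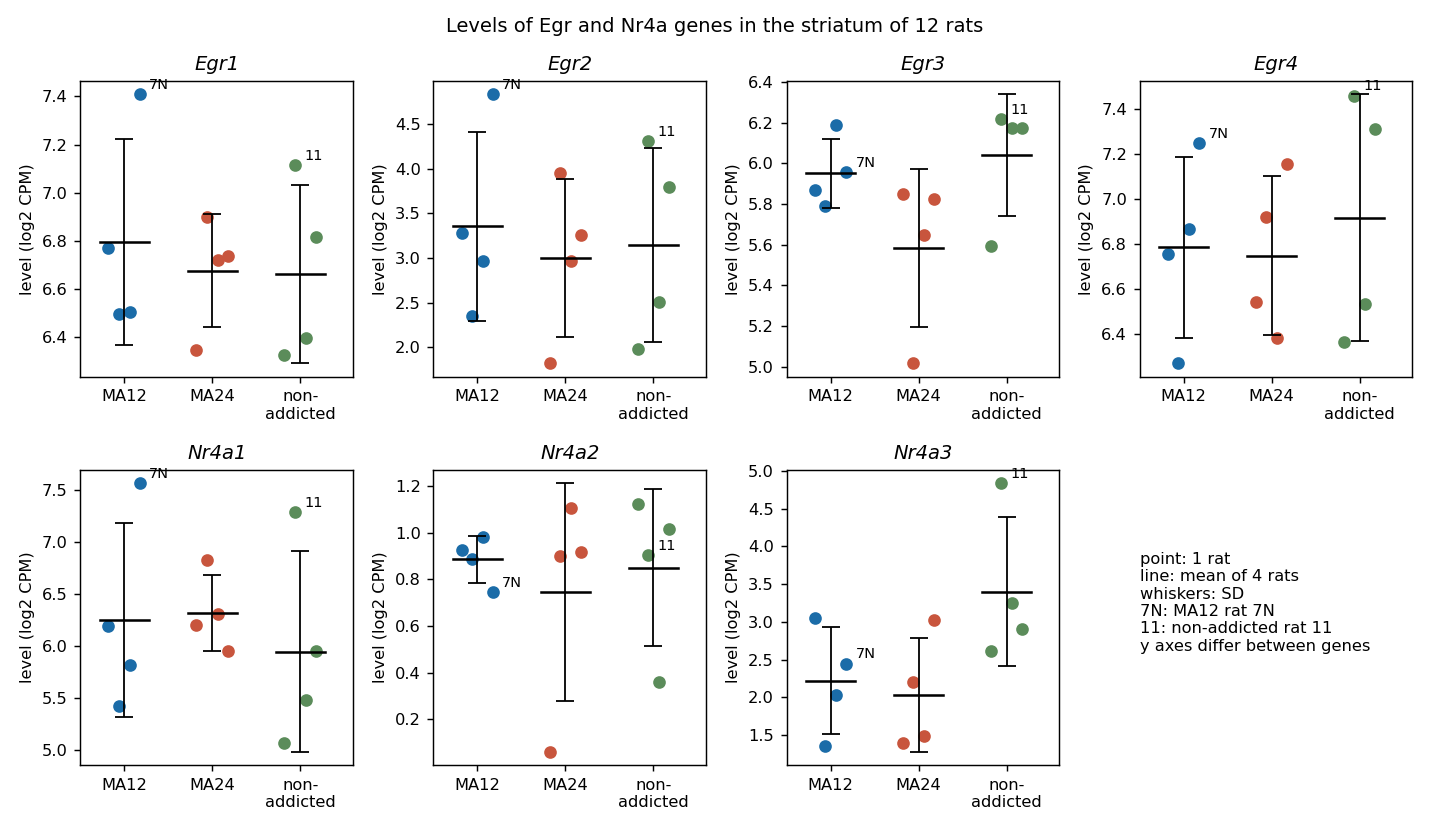
Level of each gene in each rat (log2 CPM, vertical axis; 1 panel a gene, with its own range) by group, with the mean and SD of 4 rats. The groups overlap in every panel, MA12 rat 7N tops Egr1, Egr2 and Nr4a1, and non-addicted rat 11 tops Egr3, Egr4 and Nr4a3.

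Whether the genes moved between 12 h and 24 h of abstinence was asked by comparing MA24 with MA12. None of the 7 members passed the threshold (edgeR quasi-likelihood test, Benjamini-Hochberg adjusted p below 0.05 over all genes tested and an FC of at least 1.5), beside 2.25% of 10755 genes (242). One member, Egr3, had an unadjusted p below 0.05, as did 23.5% of all genes. DESeq2 called 0 of the 7 in this and both other comparisons. Over all genes it called 335 of 10755 here, 79 of 10759 in non-addicted vs. MA12 and 123 of 10744 in non-addicted vs. MA24. The levels of the 2 groups overlapped for all 7, where 15% of all genes had groups that did not overlap. All 7 fitted log2FC values were below 0, as were 5946 of all 10755 genes, with a median of -0.16 against -0.04 over all genes. Levels of some members are correlated across these rats (Egr1 with Egr2, r = 0.96), so the 7 signs are not independent. Mean log2 CPM gave the opposite sign for Nr4a1, at 6.32 ± 0.37 (SD, n = 4) in MA24 and 6.25 ± 0.93 in MA12, and its fitted log2FC was -0.14 (SE 0.32).

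Egr3 differed most clearly from 0 in MA24 vs. MA12, with a log2FC of -0.34 (SE 0.15, 95% interval -0.65 to -0.03, edgeR adjusted p = 0.177). Mean log2 CPM was 5.58 ± 0.39 in MA24 and 5.95 ± 0.17 in MA12 (exact permutation test, two-sided, p = 0.114). Among the 16 pairs of an MA24 with an MA12 rat, the MA24 rat was higher in 2. Among the 6 rats numbered with N, 4 MA24 and 2 MA12, the log2FC was -0.45 (edgeR adjusted p = 0.198). Without MA24 rat 14N, the lowest of 12, it was -0.18 (edgeR adjusted p = 0.375).

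Egr1 (log2FC -0.16, SE 0.17), Egr2 (-0.48, SE 0.44) and Nr4a1 turned positive when MA12 rat 7N was left out, to 0.09, 0.27 and 0.51. For Egr2 the 95% interval ran from -1.41 to 0.44, which leaves both a marked fall and a modest rise within the counting and animal error. Egr4 (-0.04, SE 0.18), Nr4a2 (-0.10, SE 0.34) and Nr4a3 (-0.17, SE 0.37) also changed sign when single rats were left out. Among rats numbered with N the values were -0.33 for Egr1, -0.997 for Egr2, -0.29 for Egr4, -0.58 for Nr4a1, -0.08 for Nr4a2 and -0.07 for Nr4a3, with edgeR adjusted p from 0.188 to 0.947.

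Non-addicted rats were compared with MA12 rats next, and Nr4a3 was the member that stood highest. Its log2FC was 1.34 (SE 0.43, 95% interval 0.43 to 2.25), a 2.54-fold higher fitted level with an unadjusted p of 0.00657, and it missed the threshold (edgeR adjusted p = 0.200). Mean log2 CPM was 3.40 ± 0.99 against 2.22 ± 0.71 (exact permutation test, two-sided, p = 0.0857), where the smallest p that 4 against 4 rats allow is 0.0286. Non-addicted rats were higher in 14 of 16 pairs. Without non-addicted rat 11 the log2FC was 0.60 (edgeR adjusted p = 0.519). Among the 6 rats numbered without N, 4 non-addicted and 2 MA12, it was 1.26 (edgeR adjusted p = 0.279).

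None of the 7 members passed in non-addicted vs. MA12, beside 0.121% of 10759 genes (13), and 1 member had an unadjusted p below 0.05, beside 12.6% of genes. All 7 overlapped between the groups, and 7.2% of all genes did not. The other 6 had log2FC values between -0.30 (Nr4a1, SE 0.44) and 0.16 (Egr4, SE 0.22), with edgeR adjusted p of at least 0.789. Egr1 (-0.16), Egr2 (-0.24) and Nr4a1 were negative with all 8 rats and positive without MA12 rat 7N, at 0.09, 0.51 and 0.35. Within the rats numbered without N, where 7N has no place, they were 0.06, 0.55 and 0.35, Egr3 was 0.23, Egr4 0.46 and Nr4a2 -0.03. Egr3, at 0.10 (SE 0.13), lay within a 95% interval of -0.18 to 0.37.

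Against MA24, non-addicted rats had the higher Nr4a3 level by a log2FC of 1.53 (SE 0.42, 95% interval 0.64 to 2.43), a 2.89-fold difference with an unadjusted p of 0.00206 (edgeR adjusted p = 0.107). Mean log2 CPM was 3.40 ± 0.99 against 2.03 ± 0.75 (exact permutation test, two-sided, p = 0.0857). Without non-addicted rat 11 the log2FC was 0.78 (edgeR adjusted p = 0.325). Without non-addicted rat 9 it was 1.77 (edgeR adjusted p = 0.0432), and without non-addicted rat 13 it was 1.72 (edgeR adjusted p = 0.0291), both past the threshold. Leaving out rat 9 or rat 13 changed the call. Leaving out rat 11 did not, but it lowered the log2FC and raised the adjusted p.

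Egr3 had a log2FC of 0.44 in non-addicted vs. MA24 (SE 0.16, unadjusted p = 0.0143, edgeR adjusted p = 0.190), which was 0.28 without MA24 rat 14N (edgeR adjusted p = 0.308). Non-addicted rats were higher in 13 of 16 pairs (exact permutation test, two-sided, p = 0.114). None of the 7 members passed in non-addicted vs. MA24, beside 0.335% of 10744 genes (36), and 2 members had an unadjusted p below 0.05, beside 17.5% of genes. Again all 7 overlapped, and 9.79% of all genes did not. The other 5 lay between -0.15 (Nr4a1, SE 0.33) and 0.25 (Egr2, SE 0.42), with edgeR adjusted p of at least 0.615. All MA24 rats are numbered with N and no non-addicted rat is, so group and kind of number cannot be told apart in this comparison. Both comparisons of the non-addicted rats use the same 4 animals.

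A single test of any difference among the 3 groups gave the same picture. Nr4a3 had an unadjusted p of 0.00462 (edgeR adjusted p = 0.0833) and Egr3 of 0.0358 (edgeR adjusted p = 0.178), while the other 5 had adjusted p of at least 0.779. No member passed, beside 2.59% of 10752 genes (279), and 2 had an unadjusted p below 0.05, beside 24.1%. Leaving out non-addicted rat 9 brought Nr4a3 to an edgeR adjusted p of 0.0450.

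**Figure D2:**
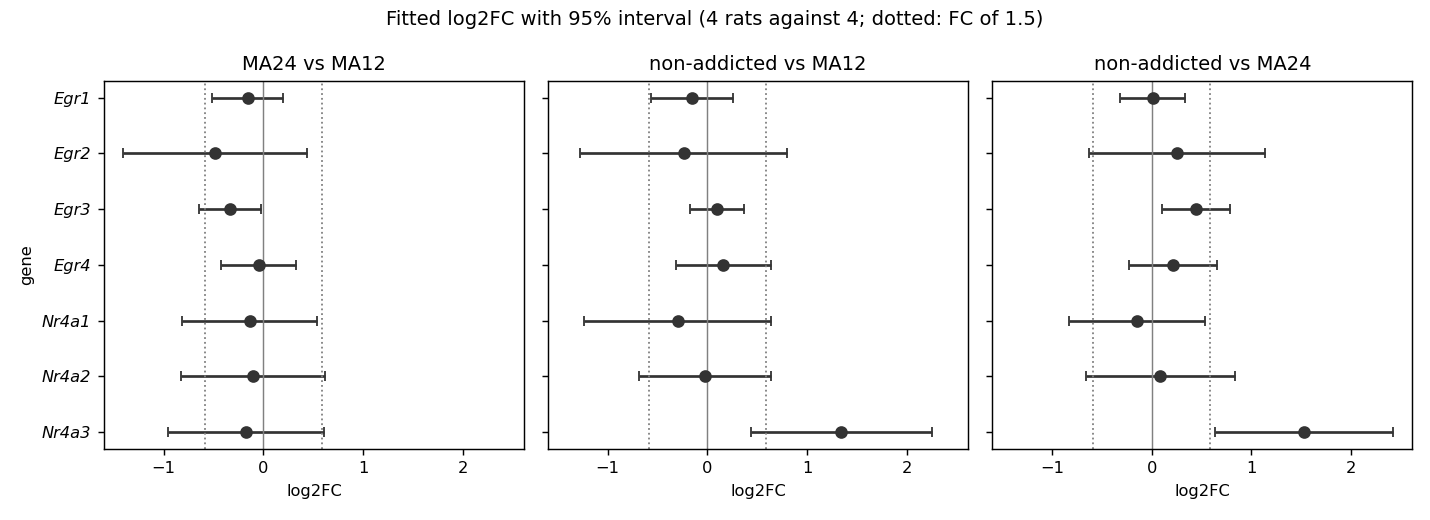
Fitted log2FC (horizontal axis) with its 95% interval for each gene in the 3 comparisons of 4 rats against 4, with dotted lines at an FC of 1.5 either way. Nr4a3 lies apart in both comparisons of non-addicted rats, at 1.34 and 1.53, and Egr3 below 0 in MA24 vs. MA12 at -0.34.

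Differences among rats of one group were wide for most of these genes. The pooled SD of log2 CPM within groups was 1.01 for Egr2 (95% interval 0.70 to 1.85), 0.83 for Nr4a3, 0.80 for Nr4a1, 0.44 for Egr4, 0.35 for Egr1 and 0.30 for Egr3, where the median of 10765 genes with a mean count of at least 50 was 0.156. Egr2 exceeded 99.8% of those genes, Nr4a3 and Nr4a1 each 99.6%, Egr4 95.4%, Egr1 90.7% and Egr3 85.6%. Nr4a2, under that count, had an SD of 0.34. Of 29 other immediate early genes measured at that level, 14 lay above the 90th percentile of all genes, and their median SD was 0.34. Fos, the founding member of the AP-1 family, reached 1.06 and Npas4, a factor induced by calcium influx, reached 1.08.

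**Figure D3:**
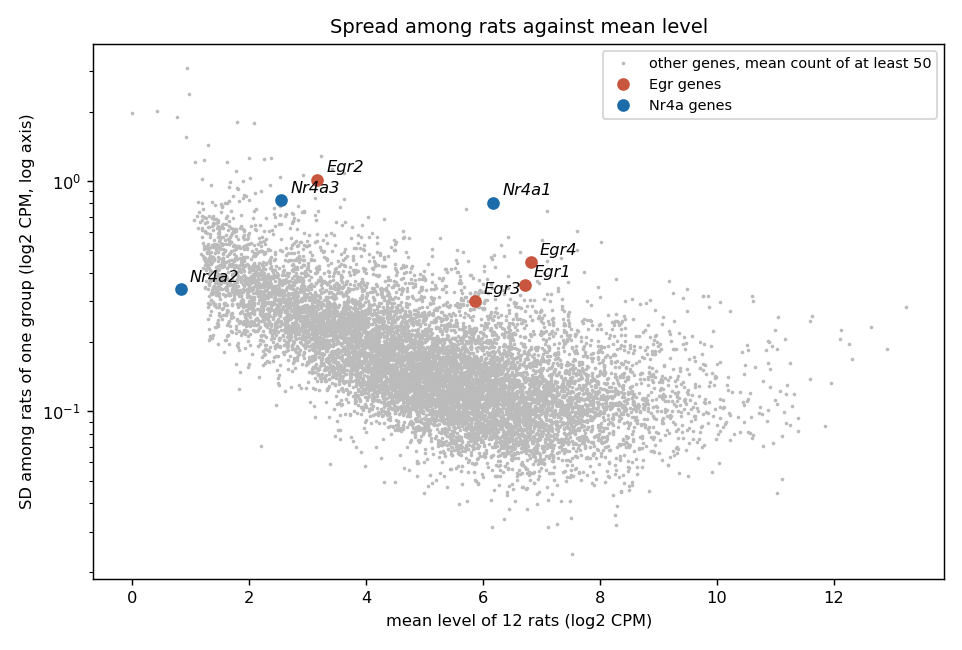
SD of log2 CPM among rats of one group, pooled over the 3 groups (vertical, log axis), against mean log2 CPM of 12 rats (horizontal), for genes with a mean count of at least 50 (grey) and the members (coloured; Nr4a2 is below that count). Nr4a1 at 0.80 and Egr2 at 1.01 stand near the upper edge of genes of like level, Egr3 at 0.30 lies lower.

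The 12 rats were then ranked for each gene. Rat 7N of MA12 topped the 12 for Egr1, Egr2 and Nr4a1, and non-addicted rat 11 for Egr3, Egr4 and Nr4a3. Non-addicted rat 9 was lowest for Egr1 and Nr4a1 and yet highest for Nr4a2. MA24 rat 9N was lowest for Egr2 and Nr4a2, and MA12 rat 31 for Egr4 and Nr4a3. Over all 10765 genes, rat 7N was highest in 6.08% and rat 11 in 8.19%. TMM scaling removes a shift shared by most genes, so these shares cannot show whether a library ran high in general. Rat 7N was also highest for 10 of the 29 other immediate early genes, among them Arc (334 CPM, median of 12 rats 129), Junb (277 CPM, median 142), Fos (25.4 CPM, median 7.70) and Dusp1 (82.2 CPM, median 45.8). Rat 11 was highest for 5, which were Fosb, Fosl2, Jun, Dusp5 and Per1, and rat 9 was lowest for 8.

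**Figure D4:**
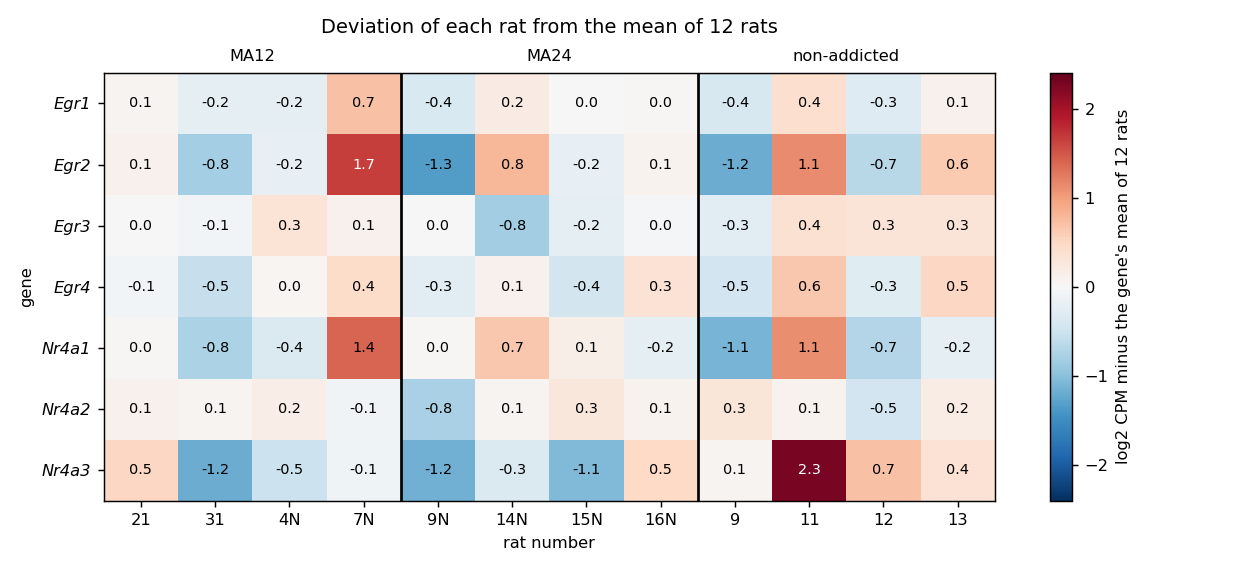
Log2 CPM of each gene (rows) in each rat (columns, by group) minus the gene's mean of 12 rats, printed in each cell. Rat 7N is high for Egr1, Egr2, Egr4 and Nr4a1 but not Nr4a2 or Nr4a3, and rat 11 is high for all but Nr4a2, by 2.28 for Nr4a3.

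Levels of members were correlated across the 12 rats for all 21 pairs, with permutation tests and Benjamini-Hochberg adjustment over the 21. All genes of a rat share its library. Egr1 and Egr2 rose and fell together (Pearson r = 0.96, Spearman rho = 0.99, permutation p = 1e-05, the smallest that 100000 permutations give, adjusted p = 0.00021). Without the 2 rats with the most extreme Egr1 levels, 9 and 7N, r was 0.95, with group means removed 0.97, within rats with N 0.96 and within rats without N 0.98 (n = 6 each, exact permutation p = 0.00417 and 0.00278). Of all 10764 other genes ranked, Egr2 had the profile most like that of Egr1, and Egr1 the profile most like that of Egr2.

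Nr4a1 followed both, with r = 0.89 to Egr1 (rho = 0.78, permutation p = 0.0001, adjusted 0.00105) and r = 0.83 to Egr2 (rho = 0.73, permutation p = 0.00079, adjusted 0.00535). Egr4 did so too, with r = 0.84 to Egr2 (rho = 0.81, permutation p = 0.00102, adjusted 0.00535) and r = 0.76 to Egr1 (rho = 0.81, permutation p = 0.00386, adjusted 0.0162). The 2 extreme rats were 9 and 7N for the pairs with Egr1, and 9N and 7N for those of Egr2 with Nr4a1 or Egr4. Without them the 4 values were 0.78, 0.91, 0.86 and 0.72, and the pair of Egr1 with Egr4 then missed the adjusted threshold. Within the 6 rats with N they were 0.88, 0.79, 0.73 and 0.65, and within the 6 without N 0.96, 0.92, 0.97 and 0.90. After adjustment, 0 of 21 pairs passed within the N rats (3 with an unadjusted permutation p below 0.05) and 4 within the rats without N.

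Egr4 with Nr4a1 missed the adjusted threshold at r = 0.67 (rho = 0.62, permutation p = 0.0189, adjusted 0.0568), with 0.50 without rats 31 and 11, 0.74 with group means removed, 0.41 within rats with N and 0.84 within rats without N. Egr4 with Nr4a3 had r = 0.65 (rho = 0.50, permutation p = 0.0168, adjusted 0.0568). That value was 0.36 without rats 31 and 11, 0.71 with group means removed, 0.90 within the rats with N and 0.76 within those without. Nr4a1 with Nr4a3 had r = 0.29 (rho = 0.08, permutation p = 0.358), which was -0.18 without rats 11 and 7N, 0.59 with group means removed, 0.14 within rats with N and 0.80 within rats without N.

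No pair with Egr3 or Nr4a2 passed over the 12 rats. Egr3 had r = 0.03 to Egr1 (rho = 0.29, permutation p = 0.924), 0.07 to Egr2, -0.03 to Nr4a1 and 0.33 to Egr4 (rho = 0.57, permutation p = 0.301). Values for Egr3 differed between the 2 kinds of rat number, a difference that was not tested. Within the 6 rats without N its r was 0.61 to Egr1, 0.74 to Egr2, 0.63 to Nr4a1 and 0.75 to Egr4 (exact permutation p from 0.104 to 0.185), and within the 6 with N, which include rat 14N, -0.16, -0.21, -0.28 and 0.12. Nr4a2 had r between -0.18 and 0.31 to the other 6.

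**Figure D5:**
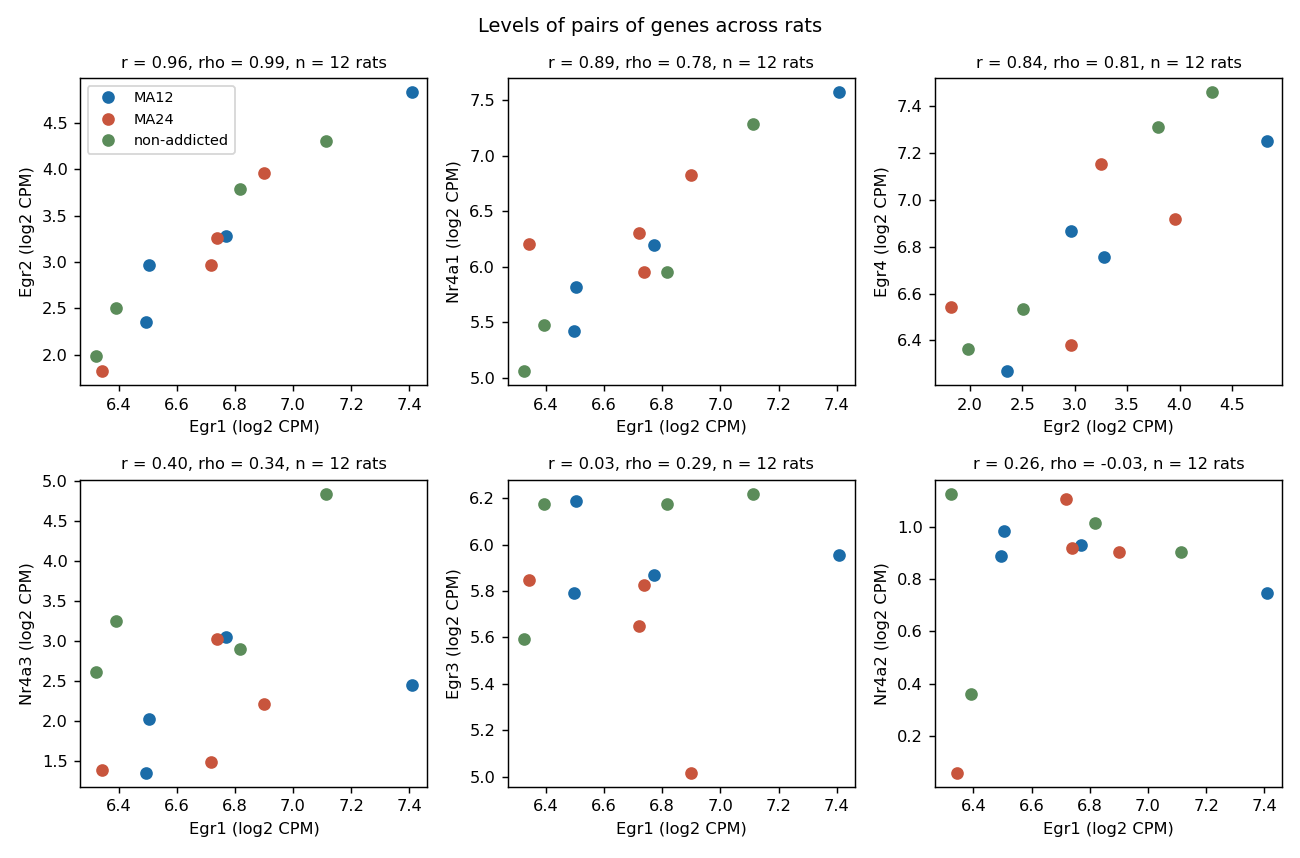
Levels of 6 pairs of genes (log2 CPM on both axes), 1 point a rat, coloured by group, with Pearson r and Spearman rho over 12 rats. The points of Egr1 with Egr2 lie close to a line (r = 0.96) with all 3 groups along it, while those of Egr3 with Egr1 are scattered (r = 0.03).

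Outside the family, the 5 genes most like each member were taken by Pearson r of log2 CPM over 12 rats among genes with a mean count of at least 50, as a description. Pdk4, a kinase that restrains pyruvate dehydrogenase, came first for Egr1 (r = 0.91) and Egr2 (0.92) and also stood among the nearest 5 for Nr4a1 (0.88) and Egr4 (0.86). Arc, a regulator of glutamate receptor trafficking at synapses, followed Egr1 at 0.87, Egr2 at 0.85 and Nr4a1 at 0.85. Junb, an AP-1 subunit, followed Egr1 at 0.87 and Egr2 at 0.87. The remaining genes were Dusp1 (0.85), a phosphatase of MAP kinases, and Slc25a25 (0.83), a mitochondrial carrier, for Egr1, and Yeats2 (0.87) and Sav1 (0.84) for Egr2. Slc25a25 led for Nr4a1 (0.93), with Trib1 (0.87) and Opn3 (0.84). Without MA12 rat 7N, the 5 neighbours of Egr1 had r from 0.73 (Slc25a25) to 0.90 (Pdk4). Those of Egr2 then had r from 0.78 (Arc) to 0.89 (Pdk4), and those of Nr4a1 from 0.78 (Arc) to 0.89 (Slc25a25).

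For Egr4 the nearest were Cish (0.89), an inhibitor of cytokine signalling, Atoh8 (0.88), Cdr2 (0.86) and Fzd9 (0.85), a Wnt receptor. Egr3 had other neighbours, namely Kalrn (0.95), a guanine nucleotide exchange factor of dendritic spines, Acap2 (0.95), Ap2a2 (0.95), an endocytic adaptor subunit, Crkl (0.94) and Rgl1 (0.94). For Egr3, 279 genes (2.59% of 10759) had an r of at least 0.8, against 4 to 19 genes for the other members, and without MA24 rat 14N its 5 neighbours had r from 0.83 to 0.91. MA24 rat 14N was itself lowest of 12 for 15.6% of all genes and highest for 12.8%. It was not alone in this, since MA24 rat 16N was lowest for 14.3% and highest for 14.9%.

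Nr4a3 was followed by Dnajb1 (0.90), a heat shock cochaperone, Hspa5 (0.87) and Xbp1 (0.86), which act in the unfolded protein response, Fosl2 (0.86) and Doc2a (0.86). Without non-addicted rat 11 these 5 had r from 0.66 to 0.86. Nr4a2 was followed by Txndc12 (0.86), Epsti1 (0.85), Rwdd2b (0.83), Ctnnbl1 (0.80) and Hrasls (0.79), at its near-Poisson counts. The mean of the 7 standardised profiles was most like Pdk4 (0.93), then Sav1 (0.84), Fzd9 (0.82), Blzf1 (0.81), Armcx2 (0.81), Cdr2 (0.81), Gpr3 (0.81), Dnajb5 (0.80), Foxk2 (0.80) and Map3k13 (0.77).

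Other genes of the pathway were read from lists. Of 31 other immediate early genes tested in MA24 vs. MA12, 1 was called, lower in MA24, which was Gadd45g (log2FC -0.59, SE 0.14, edgeR adjusted p = 0.0248), a growth arrest gene with a role in DNA demethylation. In that comparison 9 of the 31 had an unadjusted p below 0.05, beside 23.5% of all genes, of which 2.25% were called. Of 33 tested in non-addicted vs. MA12 and 32 in non-addicted vs. MA24, 0 were called by edgeR, beside 0.121% and 0.335% of all genes. At an unadjusted p below 0.05 there were 8 and 6, beside 12.6% and 17.5% of all genes. The list's median log2FC was 0.03, -0.03 and -0.02 in the 3 comparisons, against -0.04, -0.02 and 0.03 over all genes. Junb, the most counted of the list, had a log2FC of -0.08 (SE 0.21) in MA24 vs. MA12, and Arc had -0.20 (SE 0.28).

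The 18 upstream regulators tested carry signals from receptors to these promoters. In MA24 vs. MA12, 1 was called, lower in MA24, beside 2.25% of all genes. It was Creb1, the CRE-binding factor itself (log2FC -0.88, SE 0.22, edgeR adjusted p = 0.0312). Mef2a, an activity-regulated factor, had a smaller edgeR adjusted p (0.0224) and missed only the FC of 1.5, at a log2FC of -0.47 (SE 0.11). In all, 13 of the 18 lay below 0 (median -0.08, against -0.04 over all genes). An unadjusted p below 0.05 was found for 7 of the 18, beside 23.5% of all genes. Of the same list, 0 of 16 and 0 of 15 were called in the comparisons of non-addicted rats with MA12 and MA24. There 5 and 4 had an unadjusted p below 0.05, beside 12.6% and 17.5% of all genes. The kinase Map2k1 lay at 0.04 (SE 0.07) in MA24 vs. MA12, tested without the filter on low variance.

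Cofactors and partners of the 2 families, the Nab corepressors and the RXR receptors that pair with Nr4a1 and Nr4a2, had 0 calls among 3, 4 and 2 tested genes in the 3 comparisons, and 0 with an unadjusted p below 0.05. Of all genes, 2.25%, 0.121% and 0.335% were called, and 23.5%, 12.6% and 17.5% had such a p. So few genes cannot show whether this list differs from all genes. Rxrg, which is concentrated in striatum, had log2FC -0.10 (SE 0.11) in MA24 vs. MA12 and -0.22 (SE 0.11) in non-addicted vs. MA12. Rxrb had 0.12 (SE 0.08) and -0.07 (SE 0.08).

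Of 11 reported Egr target genes tested in MA24 vs. MA12, 1 was called, which was Grin2a, a subunit of the NMDA receptor (log2FC -1.25, SE 0.20, edgeR adjusted p = 0.00901). MA24 rat 14N was lowest of 12 for Grin2a (5.76 CPM), and no value without that rat is given. The list's median was -0.26, and 4 of the 11 lay above 0. An unadjusted p below 0.05 was found for 5 of the 11, beside 23.5% of all genes, of which 2.25% were called. Dlg4, the postsynaptic scaffold PSD-95, had 0.20 (SE 0.11), and Syn1, a synaptic vesicle protein, had 0.14 (SE 0.08). In non-addicted rats 0 of 12 were called against MA12 and 0 of 10 against MA24 by edgeR. At an unadjusted p below 0.05 there were 3 and 6, beside 12.6% and 17.5% of all genes.

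Of 5 reported Nr4a target genes tested in each comparison, 0 were called. In MA24 vs. MA12, non-addicted vs. MA12 and non-addicted vs. MA24, 2, 0 and 2 had an unadjusted p below 0.05. The shares of all genes were 23.5%, 12.6% and 17.5%. Slc18a2, the vesicular monoamine transporter, had a log2FC of -0.61 (SE 0.25, edgeR adjusted p = 0.149) in MA24 vs. MA12 and 0.80 (SE 0.26, edgeR adjusted p = 0.149) in non-addicted vs. MA24. Pomc, the opioid and melanocortin precursor, had 0.23 (SE 0.23) and -0.54 (SE 0.22). Whether the levels of Nr4a genes bore on these targets was not tested.

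Other measurements also differed between groups. Of 9 clock genes, 4 were called in MA24 vs. MA12: Per2 (log2FC 0.96), Dbp (0.66) and Ciart (0.98) were higher and Arntl (-0.61) was lower. In non-addicted vs. MA12, Per2 (1.03) and Per3 (0.64) were higher and Arntl (-0.60) lower. In non-addicted vs. MA24, 0 of 8 clock genes were called. In the same order of comparisons, 6, 6 and 0 clock genes had an unadjusted p below 0.05. Of all genes, 2.25%, 0.121% and 0.335% were called, and 23.5%, 12.6% and 17.5% had such a p. Nr4a3, which was not called, had a log2FC of -0.17, 1.34 and 1.53 in that order. Per1, which is both a clock gene and an immediate early gene, was highest of 12 in rat 11, at 141 CPM.

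Markers of neighbouring tissue also differed among the rats that set these values. In rat 11, the 5 thalamic and midbrain markers summed to 69.3 CPM, the highest of 12. Prkcd (58.1 CPM), Tcf7l2 (9.92 CPM) and Slc17a6 (0.64 CPM) were each highest of 12 there, and Th (0.59 CPM) was not. Slc6a3, which marks dopamine neurons, was at 0 in rat 11 as in most rats, with at most 4 counts in any. Prkcd was called lower in MA24 than in MA12 (log2FC -0.95, edgeR adjusted p = 0.0195). The 5 choroid plexus markers summed to 6.04 to 23.4 CPM in non-addicted rats, 2.75 to 4.29 in MA24 and 2.16 to 8.15 in MA12. Rat 9 was highest of 12, with 17.1 CPM of its sum from Ttr alone, and rat 11 was second at 10.8 CPM. No choroid plexus marker was called. The 4 endothelial markers summed to 267 to 379 CPM in non-addicted rats and 431 to 480 in MA24, with Kdr called lower in non-addicted rats in both comparisons (-1.09 and -0.85) and Cldn5 in that with MA24 (-0.68). Rat 7N was second of 12 for the sum of striatal projection neuron markers (17889 CPM) and rat 11 was 11th of 12 (13972 CPM). The part of tissue composition or of the hour of death in the levels of the 7 genes was not tested.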

How the data were processed

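Striatal RNA from 12 rats was sequenced after poly-A selection. The authors trimmed reads with Cutadapt (1.18 in the submitters' processing notes), aligned them to rn6 with STAR (2.7.0e) and counted them per gene with featureCounts, and the notes also name HTSeq 0.12.4 without a role. They deposited raw counts of 17337 genes, without normalization. How strands and multiply mapped reads were counted is not given in the sources used here. All 12 columns were used, grouped by the labels. The members and gene lists were chosen with earlier results of these data known.

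A gene entered a fit if its counts averaged above 4 in the libraries compared. TMM factors were computed from these genes, and the 15% that varied least in log2 CPM were then left out. The study names these filters without defining them further, so this is a reading of them. Computing TMM factors before the variance filter was decided after the data were seen. Pairs of groups were fitted alone with glmQLFit and glmQLFTest of edgeR 4.0.16 in R 4.3.3, with Benjamini-Hochberg adjustment over all genes tested, at adjusted p below 0.05 and FC of at least 1.5. List genes removed by the variance filter were tested without it. Levels used TMM over all 12 libraries. Single values were compared by two-sided exact permutation over 70 splits, and correlations with 100000 permutations (exact at n = 6), in Python 3.11.15 with scipy 1.17.1, numpy 2.4.6 and pandas 2.3.3. The fit was tested on simulated data.

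Named genes were the 7 members, list genes called in any comparison, the 2 most counted of each pathway list, and the genes most like each member, with 1 result not reported here. Fos, Npas4, Fosb, Fosl2, Jun, Dusp5, Per1, Mef2a, Slc6a3, Slc17a6, Tcf7l2, Th and Ttr were named after their values were seen. Alternatives were DESeq2 1.42.0, RLE factors, other filters, all groups in 1 fit, single rats left out, the kind of rat number, a prior count of 0.5, and CPM without TMM. Promoter sequences came from RefSeq, build GRCr8, and were not joined to rn6 coordinates. Rats were labelled as separate animals, and one batch date covered all.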

Additional observations from a re-analysis of the deposited data

Results flagged for a closer look

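One value stood far from its group. Egr3 in the non-addicted rats was 48.2 CPM in rat 9 and 72.1 to 74.3 CPM in the other 3, and on the log2 scale the gap from rat 9 to the nearest rat was 0.929 of the whole range of the group, above Dixon's 95% critical value for 4 samples. All 21 combinations of gene and group were examined in this way, of which chance alone gives about 1 in 20, or 1.05. Without rat 9 the log2FC of Egr3 was 0.57 in non-addicted vs. MA24 (edgeR adjusted p = 0.0634) and 0.23 in non-addicted vs. MA12 (edgeR adjusted p = 0.408). Rat 9 was also lowest of 12 for Egr1 and Nr4a1 and highest for Nr4a2.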

How the results depend on the processing

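In 3 comparisons of 7 genes, the 21 log2FC values stayed on their side of the threshold under every alternative run apart from Nr4a3 in non-addicted vs. MA24, past it without non-addicted rats 9 or 13, which gave 1 called member in place of 0. Leaving out each rat in turn gave -0.26 to 0.088 for Egr1, -0.88 to 0.27 for Egr2, -0.42 to -0.18 for Egr3, -0.19 to 0.12 for Egr4, -0.37 to 0.51 for Nr4a1, -0.23 to 0.093 for Nr4a2 and -0.62 to 0.18 for Nr4a3 in MA24 vs. MA12. In non-addicted vs. MA12 these ranges were -0.32 to 0.090 for Egr1, -0.71 to 0.51 for Egr2, -0.032 to 0.33 for Egr4, -0.96 to 0.35 for Nr4a1 and -0.11 to 0.13 for Nr4a2. In non-addicted vs. MA24 they were -0.16 to 0.12 for Egr1, -0.22 to 0.65 for Egr2, 0.28 to 0.57 for Egr3, -0.82 to 0.094 for Nr4a1, -0.11 to 0.24 for Nr4a2 and 0.78 to 1.98 for Nr4a3. The adjusted p of Nr4a3 over 3 groups ran from 0.0450 to 0.359. In non-addicted vs. MA12, only rats without N, or the kind of number as a covariate, gave 0.059 and 0.047 for Egr1, 0.55 and 0.54 for Egr2 and 0.35 and 0.34 for Nr4a1. TMM factors after the variance filter (an alternative added after seeing the data) gave -0.014 for Egr1 in non-addicted vs. MA24, and CPM without TMM a level difference of 0.029, against 0.0097 and -0.014. Without TMM, Egr3 differed by -0.42 in MA24 vs. MA12 (exact permutation p = 0.0286). Within the N rats 0 pairs of genes passed, against 5 with all rats, in a test of fewer rats. The cause of the other shifts was not tested.

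Counts of all genes called moved further. In MA24 vs. MA12 (242) they were 84 with only N rats, 28 with the covariate, and 103 to 400 with 1 rat left out (lowest without MA24 rat 14N, highest without MA24 rat 9N). In non-addicted vs. MA12 (13) they were 5 without the variance filter, 79 with DESeq2, 47 with only rats without N, 4 with the covariate, and 4 to 69 with 1 rat left out. In non-addicted vs. MA24 (36) they were 0 without the variance filter (2229 at an unadjusted p below 0.05), 0 with all 3 groups in the fit (2014), 123 with DESeq2, 16 with TMM after the filter, 10 with no filter, 20 with a floor of 10 counts in each library, and 0 to 169 with 1 rat left out, where 0 came without non-addicted rat 11 (1459) or 12 (1196). No paired analysis was possible because the groups hold different rats and share no numbers. With 4 rats a group, intervals cover counting and animal error, and Nr4a2 is limited by its counts.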
